A study of Arabidopsis thaliana x Arabidopsis lyrata and Arabidopsis thaliana x Arabidopsis halleri with 18 samples.

Results

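The MLP (major latex protein-like) genes of *Arabidopsis thaliana* were examined in the aerial parts of F1 hybrids between *A. thaliana* and a perennial relative, with MLP328 as the central gene. The rule listed 9 MLP transcripts by their identifiers. Of these, MLP328 (AT2G01520.1), MLP28 (AT1G70830.1) and MLP165 (AT1G35260.1) were examined, 3 of 16419 genes measured. MLP329, MLP423, MLP31, MLP34, MLP43 and MLP168 were not analysed here. MLP328 was chosen by its measured rise under dehydration and by the differences of its level and its alleles between the hybrids. Its values in those contrasts are therefore given as a description with no test.

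MLP proteins belong to the Bet v 1 fold, a plant protein family with a hydrophobic cavity that can hold small molecules, and take their name from abundant proteins of opium poppy latex. The abscisic acid receptors PYR1 and PYL carry the same fold. The biochemical activity of most MLP proteins is not settled. The annotation describes MLP328 as responsive to cis-cinnamic acid and as a promoter of vegetative growth that delays flowering. In an F1 hybrid both parental alleles share 1 nucleus, so the reads assigned to each compare those alleles under the same conditions.

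By the extraction notes, every library came from the aerial part of 1 hybrid plant that was 4 weeks old. All plants had Col-0 as the *A. thaliana* parent. By their labels, 9 plants had *A. lyrata* MN47 and 9 had *A. halleri* as the second parent. Within each hybrid, 3 plants were kept under standard conditions at 22 °C, 3 were held at 4 °C for 1 hour, and 3 were taken from the agar and dehydrated for 1 hour at 22 °C. Cold and dehydration were given in dim light, whereas the treatment notes describe the standard plants as leaf samples. In every difference of treated from standard plants below, light and the tissue sampled therefore cannot be told apart from the treatment. The files head the second allele as *A. halleri* in the 9 lyrata-labelled plants and as *A. lyrata* in the 9 halleri-labelled plants. The plants are called by their labels here, the allele that is not from Col-0 is called the second allele, and which relative it belongs to cannot be told apart from these sources.

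The deposited values are read numbers scaled to a near-equal total per library (1524104 to 1531268), and 9493 to 11874 genes in a library had a sum over both alleles of 10 or more. In 5 of the 6 dehydrated libraries some low whole numbers did not occur (3 to 23 of them), unlike in all other libraries. Such gaps can arise when a library is scaled up from a lower depth, which was not tested. The 5 leaf markers measured summed to between 8983 and 87683 scaled units in every plant. Their sum was lowest in cold plants of both hybrids (8983 to 32813) and reached 30443 to 87683 in standard plants. The means of RBCS1A and RCA were lower in cold than in standard plants of both hybrids. In halleri-labelled plants LHCA1 (4036 standard, 6329 cold), CA1 (1266 and 3656) and GLDP1 (863 and 1289) went the other way. GLDP1 did so in lyrata-labelled plants too (1022 and 1248). No leaf marker was called in a cold comparison of the total. The 6 flower markers measured summed to at most 37.9. Among these, SEP3, a floral organ regulator, was lower in dehydrated than in standard halleri-labelled plants by a log2 difference of -2.99 ± 0.65 (SE, limma adjusted p = 0.016). It was the 1 flower marker tested, and 2.96% of all genes were called in that comparison. The mean of SEP3 was 0.712 in those dehydrated plants, so the fitted size depends on the 2 added before the log. No pair of libraries was identical.

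MLP328 lies on chromosome 2 (235925 to 237253, plus strand of TAIR10.1) and has a transcript of 895 bases in 2 exons. MLP28 lies on chromosome 1 (26709947 to 26711462, minus strand), with a transcript of 1331 bases in 3 exons. MLP165 also lies on chromosome 1 (12936849 to 12937787, minus strand), with a transcript of 767 bases in 2 exons. Several members sit beside a close copy. MLP329 starts 2415 bases after MLP328, and their coding sequences are 86.0% identical, with a longest identical run of 38 bases. MLP34 is 85.0% identical to MLP28, with a run of 72 bases, and MLP168 is 82.1% identical to MLP165, with a run of 31 bases. The 3 examined genes are further apart, at 29.8% between MLP328 and MLP28, 48.0% between MLP328 and MLP165 and 33.5% between MLP28 and MLP165. The sources used here do not say how reads shared by such copies were counted. The levels and allele shares below are therefore uncertain to the extent that MLP329, MLP34 or MLP168 reads were assigned to the 3 examined genes.

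The 250 bases before each annotated start are shown because cold, dehydration and clock responses in *A. thaliana* are known to use promoter elements, of which 3 were searched. The sequences are those of the Col-0 reference (RefSeq, TAIR10.1), written 5′ to 3′ on the gene's strand, and capitals mark ACGTG, the core of the abscisic acid response element. The coordinates are chr2:235675-235924 (plus strand) for MLP328, chr1:26711463-26711712 (minus strand) for MLP28 and chr1:12937788-12938037 (minus strand) for MLP165.
MLP328: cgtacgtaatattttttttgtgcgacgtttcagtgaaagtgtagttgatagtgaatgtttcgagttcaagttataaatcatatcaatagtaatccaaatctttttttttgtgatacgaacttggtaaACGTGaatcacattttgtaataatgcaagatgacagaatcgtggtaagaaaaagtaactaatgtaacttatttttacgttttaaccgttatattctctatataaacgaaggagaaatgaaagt
MLP28: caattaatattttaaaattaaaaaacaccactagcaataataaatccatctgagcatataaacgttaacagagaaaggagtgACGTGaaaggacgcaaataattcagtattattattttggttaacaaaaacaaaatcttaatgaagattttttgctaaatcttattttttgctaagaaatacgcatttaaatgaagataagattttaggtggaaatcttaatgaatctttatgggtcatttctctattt
MLP165: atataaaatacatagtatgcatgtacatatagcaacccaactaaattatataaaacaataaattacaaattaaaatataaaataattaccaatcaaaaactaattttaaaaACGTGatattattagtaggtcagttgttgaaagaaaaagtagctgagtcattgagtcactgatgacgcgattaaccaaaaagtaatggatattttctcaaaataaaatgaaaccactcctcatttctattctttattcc

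Each of the 3 promoters held ACGTG once, at positions -123 to -119 from the start in MLP328, -168 to -164 in MLP28 and -139 to -135 in MLP165. The motif was searched on both strands (reverse complement CACGT), and 24.1% of 16400 promoters of measured genes held it. CCGAC, the core of the dehydration-responsive element that CBF factors bind (reverse complement GTCGG), was found in 12.9% of those promoters and in none of the 3. AAAATATCT, the evening element of clock-regulated genes (reverse complement AGATATTTT), was found in 2.38% and in none of the 3. These searches did not cover the promoters of the second alleles.

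MLP328 was close to 0 in lyrata-labelled plants under standard conditions and was present in every other group. Its scaled sum over both alleles was 2.59, 0 and 1 in the 3 standard lyrata-labelled plants. It was 15.3, 106 and 89.9 in the cold plants of that hybrid and 145, 67.8 and 1678 in the dehydrated plants. Neither treated group overlapped the standard group, and 1 dehydrated plant stood far above the other two.

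Halleri-labelled plants already held MLP328 under standard conditions, at scaled sums of 138, 108 and 53.4. The sums were 698, 102 and 149 in cold plants and 207, 514 and 182 in dehydrated plants. The dehydrated group lay above the standard group without overlap, whereas the cold group overlapped it because 1 of its plants was at 102. Each treated group of this hybrid contained 1 plant well above the other two.

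Ordered by mean, MLP328 was highest in dehydrated lyrata-labelled plants (630 ± 908, SD, n = 3), followed by halleri-labelled cold plants (316 ± 332) and halleri-labelled dehydrated plants (301 ± 185). Next came halleri-labelled standard plants (99.5 ± 42.7), lyrata-labelled cold plants (70.6 ± 48.6) and lyrata-labelled standard plants (1.2 ± 1.3). Neighbouring groups in this order overlapped except at 2 steps, from halleri-labelled dehydrated to halleri-labelled standard plants and from lyrata-labelled cold to lyrata-labelled standard plants.

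**Figure D1:**
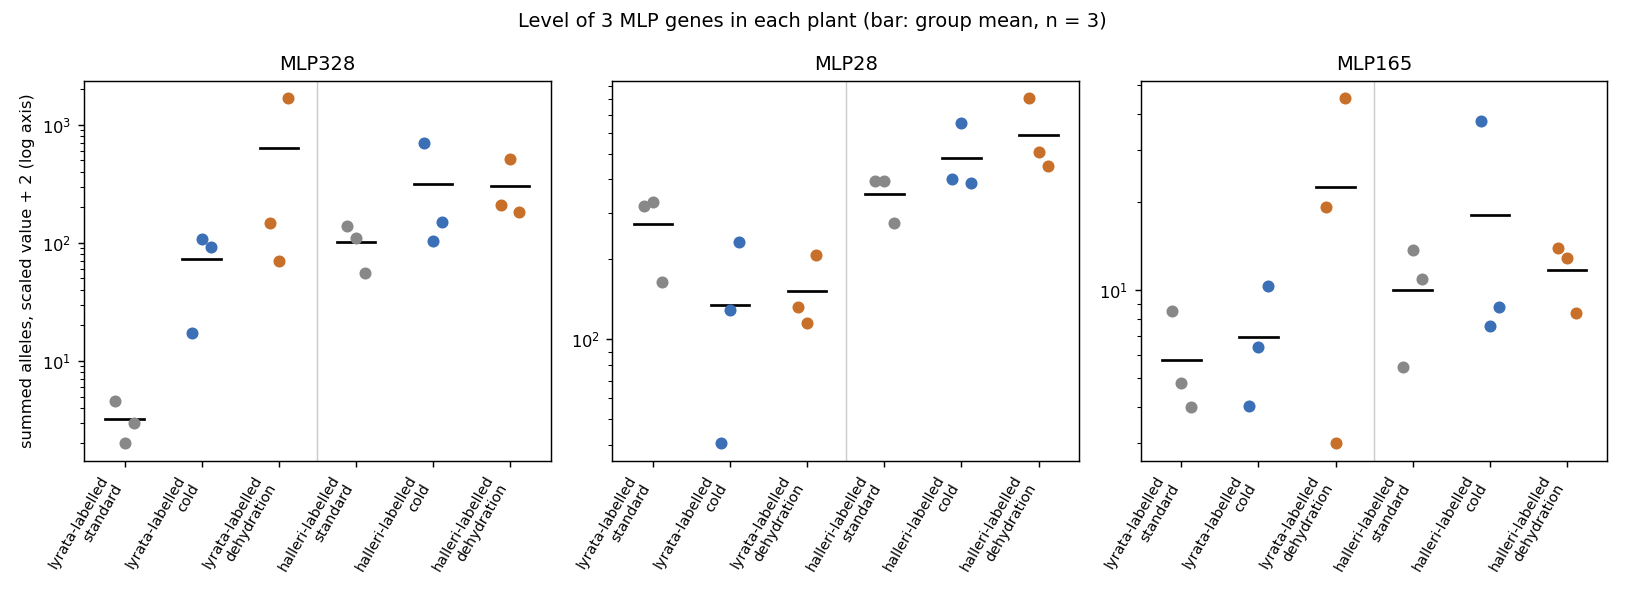
Level of MLP328, MLP28 and MLP165 in each plant, as the sum of both alleles scaled by TMM plus 2 on a log axis, by hybrid and treatment (points: plants; bars: mean of 3). MLP328 sat at 0 to 2.59 before the offset in the 3 standard lyrata-labelled plants and at 15.3 to 1678 in all others. MLP28 lay higher in halleri-labelled than in lyrata-labelled plants under cold and dehydration, but neither difference was called.

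The comparison of cold with standard plants did not itself choose MLP328. In lyrata-labelled plants the gene was higher in cold by a log2 difference of 4.20 ± 0.95 (SE, limma on log2 of the scaled sum plus 2, adjusted p = 0.04), and in 3 of 3 cold plants it lay above any standard plant. It was the 1 called gene among the 3 MLP genes in this comparison, in which 0.888% of 13058 genes were called. Both arms of this comparison also stand in contrasts for which the gene was picked, the standard plants in the dehydration and hybrid contrasts and the cold plants in the hybrid contrast, so the p describes the fit and is not an independent test. The call was lost with 10 added before the log (2.58 ± 0.87, adjusted p = 0.15) and without any 1 of 5 of the 6 plants compared (adjusted p between 0.071 and 0.17). In halleri-labelled plants the cold difference was 1.23 ± 0.95 (adjusted p = 0.62), with 0.75% of genes called. With standard plants at 0 to 2.59, the fitted size in the lyrata-labelled hybrid depends on the 2 added before the log.

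The contrasts that led to the choice of MLP328 are given for size only. The fitted log2 difference of dehydrated from standard plants was 6.42 ± 0.95 in lyrata-labelled and 1.52 ± 0.95 in halleri-labelled plants, where 0.421% and 2.96% of all genes were called. Between the hybrids, MLP328 was higher in halleri-labelled plants by 4.97 ± 0.95 under standard conditions, by 2.00 ± 0.95 in cold and by 0.07 ± 0.95 under dehydration (1.94%, 0.237% and 0.168% of genes called). The difference was thus widest where lyrata-labelled plants held almost no MLP328, and the cold and dehydrated groups of the hybrids overlapped. The response of halleri-labelled minus that of lyrata-labelled plants was -2.97 ± 1.35 in cold and -4.90 ± 1.35 under dehydration on the log2 scale, with 0.0153% and 0% of genes called. These sizes rest on the lyrata-labelled standard plants at 0 to 2.59, and with 10 added before the log they were -1.41 ± 1.22 and -3.18 ± 1.22, while the standard difference between the hybrids was 3.21 ± 0.87 and the dehydration difference in lyrata-labelled plants 4.62 ± 0.87.

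**Figure D2:**
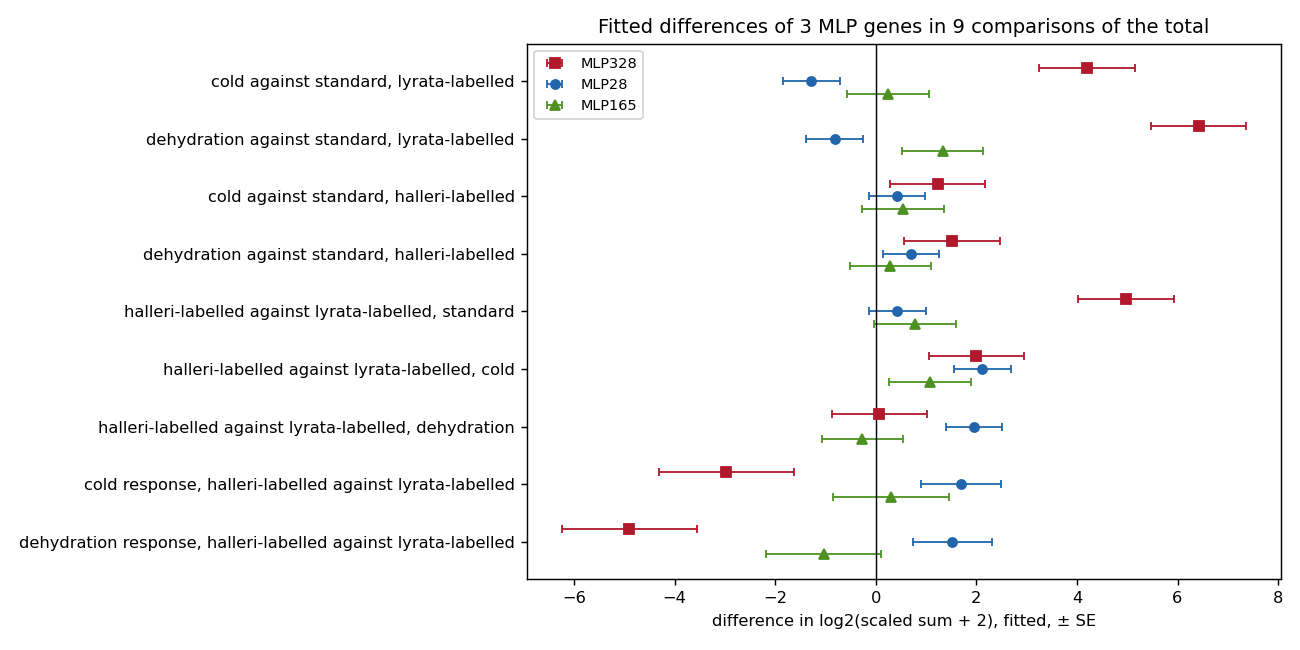
Fitted differences of MLP328, MLP28 and MLP165 in 9 comparisons of the total, in log2 of the scaled sum plus 2, with bars of 1 SE. MLP328 had the 2 widest treatment differences, 4.20 in cold and 6.42 under dehydration of lyrata-labelled plants. MLP28 exceeded 1.9 between the hybrids in cold (2.12) and dehydration (1.95), and neither difference was called.

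Most of the MLP328 signal came from the second allele in both hybrids. In lyrata-labelled plants the *A. thaliana* allele (deposited value minus the 1 added) was 0 in all 3 standard plants, 4, 25 and 16 in cold plants and 19, 7 and 430 in dehydrated plants. The second allele was 2, 0 and 1 under standard conditions, 11, 96 and 81 in cold and 116, 61 and 1320 under dehydration. Both alleles were therefore higher in every treated plant than in any standard plant of this hybrid. The second allele exceeded the *A. thaliana* allele in 8 of 9 plants and equalled it in the plant where neither was detected, with a median log2 ratio of 1.62 (0 to 2.95).

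In halleri-labelled plants the imbalance was wider. The *A. thaliana* allele was 1, 1 and 0 in standard plants, 56, 1 and 2 in cold plants and 4, 43 and 3 in dehydrated plants. The second allele was 118, 118 and 60 in standard plants, 762, 91 and 152 in cold plants and 188, 476 and 169 in dehydrated plants. The second allele was thus the larger in 9 of 9 plants and held between 91.7% and 100% of the signal, with log2 ratios between 3.44 and 5.93. The *A. thaliana* allele passed 5 in 2 plants of this hybrid, the same plants in which the total was highest.

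The fitted log2 ratio of the second to the *A. thaliana* allele of MLP328 was 1.68 ± 0.27 in lyrata-labelled and 5.19 ± 0.27 in halleri-labelled plants, a difference of 3.51 ± 0.38 that is given as a description. In each condition the ratios of the hybrids did not overlap. Allele differences were common in these data, with 53.3% of 11193 genes called in lyrata-labelled plants, 54.7% in halleri-labelled plants and 30.7% for the difference between the hybrids. The 1 added to each allele pulls these ratios toward 0 where the *A. thaliana* allele is near 0, as in standard plants of both hybrids. Relative to standard plants the ratio shifted by 0.95 ± 0.66 in cold and 1.51 ± 0.66 under dehydration in lyrata-labelled plants, and by -0.93 ± 0.66 and -1.21 ± 0.66 in halleri-labelled plants. The lyrata-labelled shifts start from standard plants whose alleles summed to between 0 and 2 once the added 1 was taken off. Over all genes the median shift under dehydration in lyrata-labelled plants was -0.24.

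**Figure D3:**
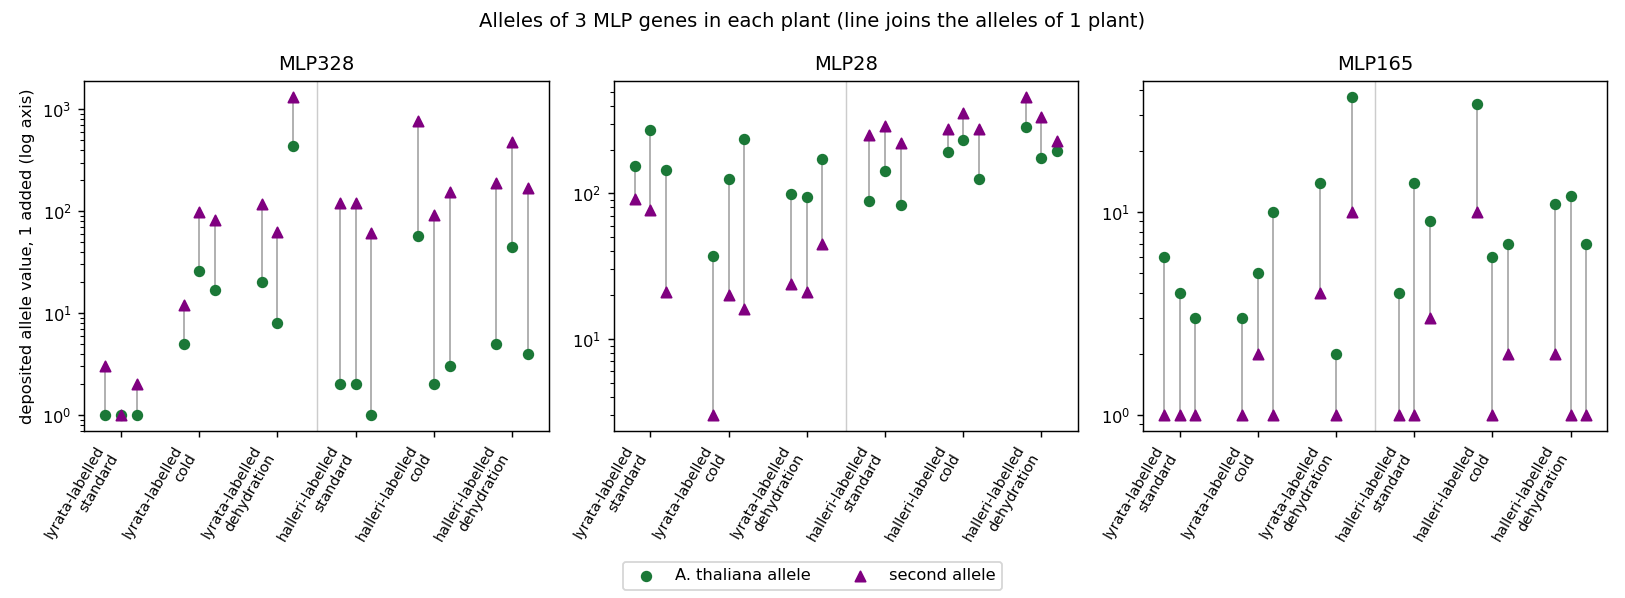
Deposited values of the *A. thaliana* allele (circles) and the second allele (triangles) of MLP328, MLP28 and MLP165 in each of the 18 plants, on a log axis and with the 1 added by the authors kept. The second allele of MLP328 was the larger in 8 of 9 lyrata-labelled and 9 of 9 halleri-labelled plants, MLP28 changed sides between the hybrids, and the *A. thaliana* allele of MLP165 was the larger in 18 of 18.

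The plants with the most MLP328 also held the most root marker signal. The 12 root markers measured (among them CASP1 and MYB36 of the endodermis, PIN2 of the root tip and EXPA7 and COBL9 of root hairs) summed to 0.944 to 3.88 scaled units in lyrata-labelled standard plants, 3.71 to 13.2 in cold plants and 11.8 to 83.4 in dehydrated plants. In halleri-labelled plants the sums were 0 to 1.16 under standard conditions, 3.32 to 126 in cold and 0 to 26.8 under dehydration. The 3 highest sums, 126, 83.4 and 26.8, belonged to halleri-labelled cold replicate 1, lyrata-labelled dehydration replicate 3 and halleri-labelled dehydration replicate 2. All 12 markers were above 0 in the first of these plants, 10 in the next and 5 in the last. The same plants had the 3 highest MLP328 sums (698, 1678 and 514) and the 3 highest values of its *A. thaliana* allele (56, 430 and 43).

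Over all 18 plants the log2 level of MLP328 and the log2 root marker sum had a Pearson r of 0.52 and a Spearman rho of 0.33, and 0.23 and 0.04 without the 2 plants highest in root markers. The correlation was 0.90 within the 9 lyrata-labelled and 0.83 within the 9 halleri-labelled plants, and over all plants it was 0.84 with the *A. thaliana* allele of MLP328 and 0.49 with its second allele. These points share libraries and treatment groups, so the coefficients only describe them. In halleri-labelled standard plants MLP328 was at 53.4 to 138 with a root marker sum of 0 to 1.16, and in halleri-labelled dehydrated replicates 1 and 3 it was at 207 and 182 with all 12 root markers at 0. Without halleri-labelled cold replicate 1 and lyrata-labelled dehydration replicate 3, the dehydration difference in lyrata-labelled plants was 5.07 ± 0.75. Neither of those plants is in a group of the cold comparison of the lyrata-labelled hybrid, although both enter the shared fit. Leaving them out therefore does not address root material in that comparison. Its root marker sums were 0.944 to 3.88 in standard plants and 3.71 to 13.2 in cold plants, which overlapped. The part of root material in this cold difference and in the other remaining differences was not tested. In whole aerial tissue, more cells that express MLP328 and more RNA per cell cannot be told apart.

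**Figure D4:**
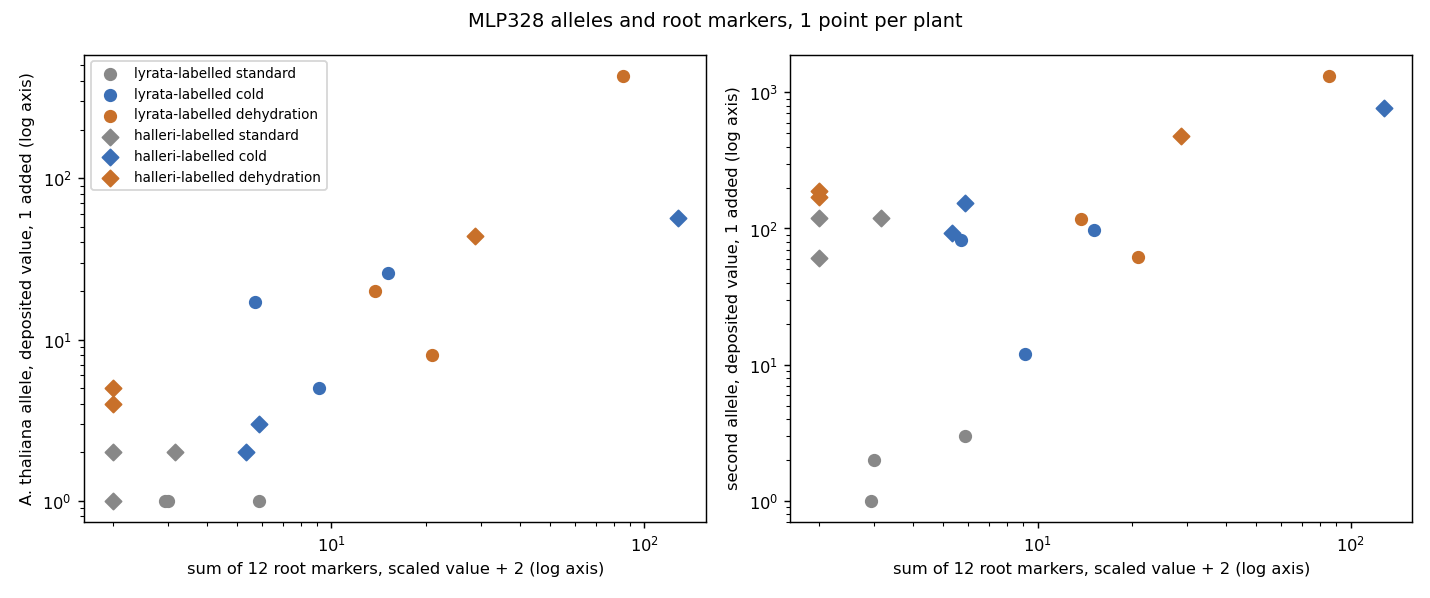
Deposited value of the *A. thaliana* allele (left) and the second allele (right) of MLP328 against the summed scaled value of 12 root markers plus 2, on log axes, with 1 point per plant. The 3 plants with the highest root sums (26.8, 83.4 and 126 before the offset) were also the 3 highest for both alleles, while halleri-labelled plants with a root sum near 0 held 60 to 188 of the second allele.

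The genes whose pattern over the 18 plants was most like that of MLP328 were LSM6B, ATDAD1, AT1G26940, AT3G59630 and CDC5. They were the 5 highest Pearson correlations of log2 levels among 7923 genes with a group mean of at least 50, and they ran from 0.86 for LSM6B to 0.80 for CDC5. LSM6B, an Sm-like protein that acts in RNA processing, was at 58.7 ± 15.9 (SD, n = 3) in lyrata-labelled standard plants, 133 ± 12.6 in cold plants and 142 ± 49.1 in dehydrated plants. In halleri-labelled plants it was at 155 ± 68.6, 195 ± 61.4 and 199 ± 9.0 in the same order. CDC5, a component of the spliceosome-associated MAC complex, was at 35.2 ± 6.82 in lyrata-labelled standard plants and at 164 ± 81.5 and 172 ± 7.70 in the cold and dehydrated plants. All 5 genes had their lowest group mean in lyrata-labelled standard plants, as MLP328 did. These 5 were picked by their correlation with MLP328 in the same plants, so the shared low point largely follows from that choice. Within the halleri-labelled plants alone the correlation of CDC5 with MLP328 was 0.10, against 0.88 within the lyrata-labelled plants.

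MLP28 was more evenly expressed than MLP328 and showed its clearest differences between alleles. Its scaled sum was 316, 328 and 163 in lyrata-labelled standard plants, 38.6, 127 and 231 in cold plants and 130, 113 and 206 in dehydrated plants. In halleri-labelled plants it was 393, 391 and 271 under standard conditions, 398, 651 and 384 in cold and 805, 504 and 446 under dehydration. Group means thus ran from 132 ± 96.2 in lyrata-labelled cold plants to 585 ± 192 in halleri-labelled dehydrated plants, and every pair of neighbouring groups in that order overlapped.

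The total of MLP28 passed the test in none of the 9 comparisons. Its log2 difference from standard was -1.28 ± 0.56 in cold (adjusted p = 0.28) and -0.82 ± 0.56 under dehydration (adjusted p = 0.45) in lyrata-labelled plants. In halleri-labelled plants the differences were 0.42 ± 0.56 in cold (adjusted p = 0.79) and 0.70 ± 0.56 under dehydration (adjusted p = 0.52). Between the hybrids MLP28 was 2.12 ± 0.56 higher in halleri-labelled plants in cold (unadjusted p = 0.0011, limma adjusted p = 0.18) and 1.95 ± 0.56 higher under dehydration (unadjusted p = 0.0022, limma adjusted p = 0.23). Those groups did not overlap in either condition, and under standard conditions, where they did, the difference was 0.43 ± 0.56 (adjusted p = 0.75). Of 13058 genes, 887 in cold and 1019 under dehydration had an unadjusted limma p below 0.05. The share of all genes without overlap was not counted. The response to cold differed between the hybrids by 1.69 ± 0.79 (limma adjusted p = 0.64) and the response to dehydration by 1.52 ± 0.79 (adjusted p = 0.55).

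The alleles of MLP28 pointed in opposite directions in the hybrids. The *A. thaliana* allele of lyrata-labelled plants was at 153, 271 and 143 under standard conditions, 36, 125 and 234 in cold and 98, 93 and 171 under dehydration. The second allele of the same plants was at 91, 76 and 20, then 2, 19 and 15, then 23, 20 and 44. The *A. thaliana* allele was the larger in 9 of 9 plants, and the second allele held between 5.26% and 37.3% of the signal. The second allele was lower in every cold plant than in any standard plant of this hybrid, whereas the *A. thaliana* allele overlapped between those groups.

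In halleri-labelled plants the *A. thaliana* allele of MLP28 was at 88, 142 and 82 under standard conditions, 191, 230 and 124 in cold and 287, 175 and 193 under dehydration. The second allele was at 252, 291 and 222, then 275, 357 and 274, then 459, 334 and 229. Here the second allele was the larger in 9 of 9 plants and held between 54.3% and 74.1% of the signal. Second alleles of the hybrids did not overlap in any condition, at 2 to 91 in lyrata-labelled and 222 to 459 in halleri-labelled plants. The *A. thaliana* allele was lower in halleri-labelled than in lyrata-labelled plants under standard conditions and higher under dehydration, both without overlap. In cold it overlapped, as it did over the hybrids as a whole (36 to 271 and 82 to 287). The share of all genes without such overlap was not counted.

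The fitted log2 ratio of the second to the *A. thaliana* allele of MLP28 was -2.40 ± 0.17 in lyrata-labelled plants (limma adjusted p = 2.5e-08) and 0.90 ± 0.17 in halleri-labelled plants (adjusted p = 0.00036). The difference between the hybrids was 3.30 ± 0.24 (adjusted p = 1.3e-07). MLP28 was the 1 MLP gene tested in these 3 comparisons, against the backgrounds of 53.3%, 54.7% and 30.7% of genes given above, so a called allele ratio is not unusual by itself. The ratio shifted in cold by -1.60 ± 0.42 in lyrata-labelled plants (adjusted p = 0.086, not called, with 0.706% of genes called). That shift was called when the limit on the mean per plant was raised to 50 (adjusted p = 0.042) and without lyrata-labelled standard replicate 3 (-2.10 ± 0.39, adjusted p = 0.031). It was -1.09 ± 0.39 (adjusted p = 0.26) without lyrata-labelled standard replicate 1. The other shifts were -0.27 ± 0.42 under dehydration in lyrata-labelled plants (adjusted p = 0.79), and -0.56 ± 0.42 in cold (adjusted p = 0.64) and -0.70 ± 0.42 under dehydration (adjusted p = 0.45) in halleri-labelled plants (0.742%, 0.92% and 1.63% of genes called). The median shift over all genes under dehydration in lyrata-labelled plants was -0.24, close to that of MLP28. In replicate 2 of that group the *A. thaliana* alleles held 61.3% of the library total.

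MLP165 had the lowest group mean of the 3 genes in every group except lyrata-labelled standard plants, where MLP328 was lower. Its scaled sum was 6.47, 2.83 and 2 in lyrata-labelled standard plants, 2.03, 4.4 and 8.34 in cold plants and 17.2, 0.997 and 43.2 in dehydrated plants. In halleri-labelled plants it was 3.47, 11.7 and 8.91, then 35.8, 5.54 and 6.75, then 11.9, 10.9 and 6.34. All groups overlapped, and the 2 highest values, 43.2 and 35.8, came from lyrata-labelled dehydration replicate 3 and halleri-labelled cold replicate 1, the plants highest in root markers and in MLP328. MLP165 passed the test in none of the 9 comparisons of the total, where its log2 differences lay between -1.04 ± 1.15 and 1.33 ± 0.81. The *A. thaliana* allele was the larger in 18 of 18 plants, at 1 to 36 in lyrata-labelled and 3 to 33 in halleri-labelled plants, and the second allele was at 0 to 9 in each. With a mean of 9.78 per lyrata-labelled plant, MLP165 fell just under the limit of 10 for the allele test.

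The 3 genes can be set beside each other per kilobase of the Col-0 transcript. The share of reads that could be assigned to an allele can differ between genes and was not measured, so their order is approximate. In halleri-labelled dehydrated plants the level was 336 ± 207 scaled units per kilobase for MLP328 (SD, n = 3), 440 ± 145 for MLP28 and 12.7 ± 3.84 for MLP165. In lyrata-labelled standard plants it was 1.34 ± 1.46 for MLP328, 202 ± 69.0 for MLP28 and 4.91 ± 3.10 for MLP165. MLP28 thus had the highest level per kilobase of the 3 under standard conditions in lyrata-labelled plants. MLP328 and MLP28 overlapped in dehydrated halleri-labelled plants. Across the 18 plants the log2 level of MLP165 followed that of MLP328 more closely (r = 0.70, rho = 0.72) than MLP28 did (r = 0.28, rho = 0.47). The MLP328 and MLP165 alleles were on opposite sides, the second allele being the larger in 17 of 18 plants for MLP328 and in 0 of 18 for MLP165.

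Of 19 further genes annotated as MLP-like or Bet v 1 type, 4 were examined, of which AT1G14930 was at 0 in all 18 plants and AT5G28000 was too low to test. The remaining pair, AT4G14060 and AT1G23120, passed no test of the total. AT4G14060 was at 0 in all 3 lyrata-labelled standard plants. It was at 4.30, 1.99 and 65.2 in the dehydrated plants of that hybrid, at 234, 0 and 0.965 in halleri-labelled cold plants and at 24.8, 132 and 50.8 in halleri-labelled dehydrated plants. Its 3 highest values, 234, 132 and 65.2, came from the same 3 plants that were highest in MLP328 and in root markers. Dehydrated halleri-labelled plants did not overlap the standard plants of that hybrid (4.63, 0 and 0), with a difference of 4.27 ± 1.35 (limma adjusted p = 0.086).

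The second allele of AT4G14060 was the larger in 6 of 9 halleri-labelled plants, with a fitted log2 ratio of 2.04 ± 0.37 (limma adjusted p = 0.00022). In the other 3 neither allele was detected. In lyrata-labelled plants the ratio was 0.35 ± 0.37 (adjusted p = 0.45), and the difference between the hybrids was 1.69 ± 0.52 (adjusted p = 0.022). The second allele was the larger in 3 lyrata-labelled plants, the smaller in 1 and equal in 5. Neither allele was detected in the standard plants and cold replicate 3 of that hybrid. The 1 added sets the ratio of undetected alleles to 0, so the difference between the hybrids depends partly on detection. AT1G23120 took another course in halleri-labelled plants. It was at 68.2, 28.9 and 30.3 in halleri-labelled standard plants and at 0 to 7.40 in the cold and dehydrated plants of that hybrid, without overlap. The differences were -3.57 ± 0.88 in cold (limma adjusted p = 0.058) and -2.83 ± 0.88 under dehydration (adjusted p = 0.082). In lyrata-labelled plants they were -0.22 ± 0.88 in cold (adjusted p = 0.94) and 0.38 ± 0.88 under dehydration (adjusted p = 0.85). There both treated groups overlapped the standard group. None of these differences was called, and the totals were chosen after their values were seen. The share of all genes without overlap was not counted, here or for AT4G14060. The second allele of AT1G23120 was the larger in 5 of 9 lyrata-labelled plants, with a ratio of 1.46 ± 0.55 (adjusted p = 0.034). In halleri-labelled plants it was the larger in 6 of 9, with a ratio of 1.13 ± 0.55 (adjusted p = 0.093), and the difference between the hybrids was -0.34 ± 0.78 (adjusted p = 0.77). For these pairs of alleles, too, the backgrounds were 53.3%, 54.7% and 30.7% of all genes.

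The abscisic acid receptors, which share the Bet v 1 fold, and the SnRK2 kinases downstream of them were the other list examined, with 15 of 17 genes measured and 11 tested. In the 4 comparisons of a treatment with standard plants limma called 0 of the 11, where 0.888% and 0.421% of all genes were called in cold and dehydrated lyrata-labelled plants and 0.75% and 2.96% in halleri-labelled plants. Their median log2 difference was 0.42 in cold and -0.50 under dehydration in lyrata-labelled plants, and 0.80 and -0.11 in halleri-labelled plants, where the medians over all genes were 0.06, 0.04, 0.04 and 0.03. Between the hybrids 1 of 11 was called, against 1.94% of all genes under standard conditions. This was PYL9, a receptor, with a log2 difference of halleri-labelled from lyrata-labelled standard plants of -2.77 ± 0.70 (limma adjusted p = 0.047). Its scaled sum was 105, 53.8 and 57.0 in lyrata-labelled and 30.1, 9.94 and 0.891 in halleri-labelled standard plants.

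The second allele of PYL9 was the smaller in halleri-labelled plants, unlike that of MLP328, but not in lyrata-labelled plants. In halleri-labelled plants its second allele was at 0 to 4 and its *A. thaliana* allele at 1 to 59, and the *A. thaliana* allele was the larger in 9 of 9 plants (log2 ratio -3.47 ± 0.24, limma adjusted p = 1.8e-08). In lyrata-labelled plants the second allele was the larger in 7 of 9 plants (0.35 ± 0.24, adjusted p = 0.22), and the difference between the hybrids was -3.82 ± 0.34 (adjusted p = 9.5e-07). Over the list, the second allele was higher for 1 gene and lower for 2 genes of 11 in lyrata-labelled plants, and higher for 2 and lower for 5 in halleri-labelled plants, beside 53.3% and 54.7% of all genes called in either direction. The ratio differed between the hybrids for 6 of 11, higher in halleri-labelled plants for PYR1 and OST1 and lower for PYL5, PYL8, PYL9 and SNRK2.3, beside 30.7% of all genes. The median allele ratios of the list, 0.02 and -0.06, lay beside medians of -0.04 and 0.07 over all genes.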

How the data were processed

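RNA from 18 hybrid plants, 3 in each of 6 groups taken from the labels, was analysed from the deposited allele files. Each file gives a score for every transcript and each of its alleles, per the file headers. The deposited score has the form of a read number multiplied by a factor common to the library, rounded and raised by 1, as read from the values. TopHat2, SAMtools, DESeq2 and TAIR10 are named without role or version, per the submitters' processing notes. Depth is unknown, and 5 dehydrated libraries lacked low whole numbers, as can arise from scaling up.

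The test was limma 3.58.1 in R 4.3.3 (eBayes, trend and robust), as planned for scaled scores. A count test had been planned only for unscaled counts, which these scores are not. Alleles were summed, the added 1 was taken off each, and sums were scaled by TMM (trims of 30% and 5%), here called scaled sums. Values entered the fit as log2 of that sum with 2 added, which understates differences of low genes. A gene needed a sum of 10 or more in 3 or more libraries (13058 genes), with all 18 libraries in 1 fit. Allele ratios were fitted on unscaled values for the 11193 genes whose mean sum reached 10 in both hybrids. P values were 2-sided, adjusted by Benjamini-Hochberg over all genes and called below 0.05. The fit was tested on simulated data.

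Members and lists (other MLP-like genes, abscisic acid receptors with SnRK2 kinases, leaf, root and flower markers) were chosen with earlier results of these data known. All members measured were named, with list genes that passed a test and the 5 genes most correlated with MLP328. AT1G23120 and AT4G14060 totals, root marker names and the plants singled out were chosen after their values were seen. Of 16419 genes, 16401 were matched to TAIR10.1, which gave names, coordinates and promoters. Coding identities came from global alignments in Biopython 1.88, counted over all aligned columns. Alternatives were other scalings, filters, offsets, library weights, a replicate block, fewer groups and libraries left out. The 2 libraries highest in root markers were left out as an alternative chosen after the data were seen.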

Additional observations from a re-analysis of the deposited data

Results flagged for a closer look

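The allele ratio of MLP28 differed between the hybrids by a test of the difference itself. The log2 ratio of the second to the *A. thaliana* allele was 3.30 ± 0.24 higher in halleri-labelled than in lyrata-labelled plants (limma adjusted p = 1.3e-07), with 9 of 9 plants of each hybrid on opposite sides of equal alleles. At an adjusted p below 0.05, 30.7% of all genes tested differed between the hybrids in this ratio.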

How the results depend on the processing

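No called difference of an MLP gene changed direction under the alternatives run. Genes of the other lists were not followed individually through these alternatives. The uncalled dehydration shift of the MLP28 allele ratio in lyrata-labelled plants went from -0.27 to 0.31 without the 3 libraries that stood apart. The cold call of MLP328 in lyrata-labelled plants was the least stable result: the number of MLP genes called fell from 1 to 0 with no filter (adjusted p = 0.05), with 10 added before log2 (0.15), with a replicate block (4.20 ± 0.99, adjusted p = 0.061) and with only the groups compared (0.082), and the cause was not tested. With each library left out in turn it ran from 0 to 1, and it was kept with library weights (0.005), other scalings (0.03 and 0.047) and without the 3 libraries that stood apart (0.044). As said above, groups of this comparison also stand in the contrasts that picked MLP328. These p values therefore describe the fit under each setting and are not independent tests. For the shift of allele ratio in cold lyrata-labelled plants the number called rose from 0 to 1 when the mean had to reach 50 and ran from 0 to 1 with each library left out. For the allele ratio of lyrata-labelled plants it ran from 1 to 2 with each library left out, and for halleri-labelled plants it rose from 1 to 2 with only the groups compared, since MLP165 then passed the filter. The dehydration difference of MLP328 in lyrata-labelled plants was 4.62 with 10 added, 7.67 without the 3 libraries that stood apart, 5.07 without the 2 libraries highest in root markers, and 5.07 to 7.36 with each library left out. That in halleri-labelled plants ran from 1.05 to 1.80. Calls over all genes moved more widely, from 14 to 521 for cold in lyrata-labelled plants. Replicate numbers did not pair plants (correlations of 45 same-number pairs from -0.28 to 0.17, median -0.02), and the replicate block changed no other call of an MLP gene. The 3 libraries that stood apart were lyrata-labelled standard replicate 1 and halleri-labelled cold replicate 1 (TMM factors 0.772 and 1.17) and lyrata-labelled dehydration replicate 2 (*A. thaliana* share 61.3%).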
